A study of Homo sapiens with 9 samples.

Results

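MBD3L2 belongs to a set of genes that human embryos switch on at cleavage stages, and the question here was whether other genes of that set followed it in embryonic stem cells treated with butyrate and DZNep. The set holds 6 genes: MBD3L2, MBD3L1, ZSCAN4, TRIM43, KHDC1L and RFPL2. They were selected in different ways: MBD3L2 was chosen by its fall in treated against control cells, and the other 5 genes were chosen by their role, so the values of MBD3L2 are given as a description with no test. All probe sets annotated to a member gene were taken, which gave 9 of the 54613 non-control probe sets of the array. Of these 9, 7 are annotated to a single gene and cover 5 genes, whereas the 2 probe sets for TRIM43 are annotated to both TRIM43 and its near copy TRIM43B.

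The cells were HSF-6, an established line of human embryonic stem cells, profiled with 9 Affymetrix expression arrays in 3 groups of 3. Control cells were HSF-6(8) without the agents, and the treated groups were HSF-6(8) and HSF-6(S9), each cultured with butyrate and DZNep together. Per the labels the cultures ran through 11 passages and the cells grew for 6 days. Butyrate inhibits histone deacetylases, and DZNep (3-deazaneplanocin A) inhibits S-adenosylhomocysteine hydrolase and thereby methylation by enzymes such as EZH2. No untreated HSF-6(S9) group and no group with 1 agent alone were analysed here, so the subline and the treatment cannot be told apart where treated HSF-6(S9) is set against the control. Nothing in the labels says whether the 3 arrays of a group came from separate cultures, so the p-values measure the spread between these arrays, which may be technical.

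Embryonic genome activation is the step at which a human embryo starts its own transcription and stops living on RNA stored in the oocyte. The pioneer factor DUX4 is briefly made then and activates many of the genes named here, and rare cells in stem cell cultures can enter a similar state. MBD3L2 and MBD3L1 resemble the methyl-CpG-binding protein MBD3, a subunit of the NuRD deacetylase complex, but lack the domain that contacts methylated DNA. ZSCAN4 is a SCAN domain zinc finger protein linked to telomere maintenance, TRIM43 is a tripartite motif protein, KHDC1L has a KH-type RNA-binding fold, and RFPL2 is a ret finger protein-like gene.

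Both stem cell markers and fibroblast markers gave signal on the arrays. All 18 probe sets annotated to a single gene among the stem cell markers lay above their own array's median on at least 3 arrays, with LIN28A at 21802 to 38677 and DNMT3B at 20458 to 40242 signal units. Of 36 single-gene probe sets of fibroblast markers, 19 met the same measure. Their highest means over the 9 arrays were 15122 units for VIM and 6926 for COL1A1. Together the 36 summed to 31385 to 34139 units on the control arrays, 34913 to 58051 on treated HSF-6(8) and 35615 to 44528 on treated HSF-6(S9). In treated against control HSF-6(8), 12 of the stem cell probe sets were lower and 6 higher. Of the fibroblast probe sets 13 were lower and 23 higher. At an unadjusted limma p under 0.05, 3 of them were higher and 3 lower, beside 4.06% and 2.23% of all probe sets. Means of COL1A1 (1556499_s_at) were 4383 units in control and 9383 in treated HSF-6(8). The THY1 probe sets went the other way, from 2660 to 1815, 2107 to 1169 and 1947 to 1144 units. The fibroblast sum thus does not describe its markers as a set. The part of the stem cell and fibroblast markers in any result was not tested. Array medians ran from 64.8 to 82.9 units. Of 13 germ cell marker probe sets, 9 never exceeded their array's median, among them DDX4 (at most 31.8 units) and PRM1 (at most 53.0), whereas DAZL passed the filter with 378 to 781 units in control. Their summed signal was 730 to 1086 units on the control arrays, 443 to 697 on treated HSF-6(8) and 302 to 500 on treated HSF-6(S9), and its part in any result was not tested. DAZL made up much of this sum, with means of 544, 163 and 146 units in these groups, so the sum does not describe the markers as a set. Against control, 7 of the 13 were higher and 6 lower in treated HSF-6(8), and 5 were higher and 8 lower in treated HSF-6(S9). The third arrays stood apart from the rest: deviations from the group means correlated at 0.26 to 0.40 among the third arrays and at -0.28 to -0.13 between them and the other arrays of other groups.

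MBD3L2 sits on chromosome 19 in a cluster with the copies MBD3L2B, MBD3L3, MBD3L4 and MBD3L5, none of which has a probe set annotated to it here. The promoter windows show how alike the copies are: over 281 aligned bases MBD3L2 and MBD3L2B were identical at 281, and MBD3L2 and MBD3L3 shared 259 of 296 aligned columns (87.5%). The probe sequences were not analysed here, so which of these copies contribute to the MBD3L2 signal is uncertain. Of the 6 genes, 5 had a window in the RefSeq table for build GRCh38.p14, each running from 250 bases before to 50 bases after an annotated start, and TRIM43 was not matched. The windows of MBD3L2 (chr19:7049071-7049370, plus strand), MBD3L3 (chr19:7058627-7058926, minus strand) and ZSCAN4 (chr19:57668685-57668984, plus strand) are printed 5′ to 3′ because they let the copies be compared with each other and with a second cleavage-stage gene. Capitals mark the motif TATAAAA.
MBD3L2: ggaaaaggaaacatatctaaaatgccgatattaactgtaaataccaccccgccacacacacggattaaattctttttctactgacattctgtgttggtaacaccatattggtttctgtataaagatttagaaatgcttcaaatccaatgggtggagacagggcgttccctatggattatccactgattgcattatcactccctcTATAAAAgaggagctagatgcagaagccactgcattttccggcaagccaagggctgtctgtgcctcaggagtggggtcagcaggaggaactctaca
MBD3L3: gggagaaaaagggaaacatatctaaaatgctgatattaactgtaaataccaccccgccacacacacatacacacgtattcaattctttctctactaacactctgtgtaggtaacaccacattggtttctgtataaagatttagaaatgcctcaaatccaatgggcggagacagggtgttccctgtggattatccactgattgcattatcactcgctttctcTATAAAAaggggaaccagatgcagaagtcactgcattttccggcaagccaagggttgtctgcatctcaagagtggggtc
ZSCAN4: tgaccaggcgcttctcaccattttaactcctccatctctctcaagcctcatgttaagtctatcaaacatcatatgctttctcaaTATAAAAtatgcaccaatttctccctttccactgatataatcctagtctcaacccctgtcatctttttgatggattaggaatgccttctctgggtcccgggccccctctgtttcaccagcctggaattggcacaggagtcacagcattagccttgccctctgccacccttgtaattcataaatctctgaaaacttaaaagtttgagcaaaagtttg

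Searched on both strands, TATAAAA started 46 bases before the annotated start in MBD3L2, 29 in MBD3L3 and 166 in ZSCAN4, and it occurred in 1586 of 35116 promoter windows (4.52%). The same letters were found in the windows of MBD3L2B, MBD3L4 and MBD3L5, and not in those of MBD3L1, KHDC1L or RFPL2. The published DUX4 consensus had no exact match in any of these windows, and 55 of all windows (0.157%) held one. MBD3L2 had 5 CpG sites in its window, where the median window had 14. MBD3L1, elsewhere on the same chromosome, has 2 windows that differ sharply from each other, with 46 CpG sites upstream at chr19:8832127-8832426 and 0 at chr19:8842343-8842642.

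In control HSF-6(8) cells the MBD3L2 probe set (1552456_a_at) gave a clear signal, and in both treated groups it was close to the bottom of the scale. The control arrays measured 167, 184 and 271 signal units (mean 207 ± 55.9, SD, n = 3). Treated HSF-6(8) arrays measured 4.57, 7.86 and 6.28 units (mean 6.24 ± 1.65, SD, n = 3), and treated HSF-6(S9) arrays measured 4.33, 2.16 and 1.29 units (mean 2.6 ± 1.57, SD, n = 3). Every treated array was far below every control array, an order that 5.3% of all probe sets showed in HSF-6(8) and 7.21% in HSF-6(S9), and from which nothing is read because it chose the gene. MBD3L2 was the only member whose probe set passed the filter on low values, which asks for at least 3 arrays above their own median. It passed that filter through the control arrays alone.

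**Figure D1:**
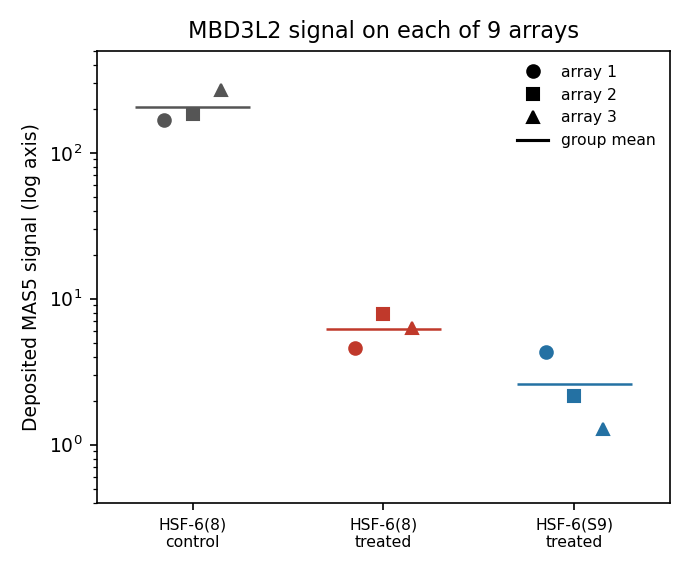
Deposited MAS5 signal of the MBD3L2 probe set (log axis) on each of 9 arrays in 3 groups, with symbols for the array number and a line at each group mean. The control arrays lie between 167 and 271, and the 6 treated arrays lie between 1.29 and 7.86.

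After 16 units were added to each value, the log2 change of MBD3L2 was -3.30 ± 0.23 (SE) in treated against control HSF-6(8) and -3.56 ± 0.23 (SE) in treated HSF-6(S9) against the same control arrays. The 2 comparisons share their control arrays and are therefore not independent of each other. The added 16 units limit how far a value can fall on this scale: from the control level of MBD3L2 the largest fall possible was 3.77. With 1 unit added in place of 16 the changes were -4.84 and -5.91, and with 64 they were -1.93 and -2.01, so the size of the change depends on that choice. Its direction could not turn with the added number, since every treated array was below every control array. With the third array of every group left out they were -3.11 and -3.31.

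Between the treated groups, MBD3L2 differed by -0.26 ± 0.23 (SE) on the log2 scale, HSF-6(S9) minus HSF-6(8). All 3 treated HSF-6(S9) arrays were below all 3 treated HSF-6(8) arrays, as they were for 5.04% of all probe sets, and the gap between 4.33 and 4.57 units is smaller than the SD of either group. At these levels the 2 treated groups were not told apart.

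None of the other 5 genes passed the test for a fall alongside MBD3L2, a test that their probe sets could not pass from their control level with the spread observed. A probe set was called when limma gave a Benjamini-Hochberg adjusted p under 0.05 over all 54613 probe sets and a change of at least 2-fold. In treated against control HSF-6(8), limma called 0 of the other 8 member probe sets, and 1 of them (RFPL2, higher) had an unadjusted p under 0.05, as did 4.06% of all probe sets upward and 2.23% downward. Over the whole array 48 probe sets were called higher (0.0879%) and 5 lower (0.00916%), and a count of 0 among 8 is not distinct from that background. The 5 include the MBD3L2 probe set, which was chosen by this very difference, so nothing is read from its place there. The others, named after their values were seen, were GRPR, ADAMTS8 and 2 probe sets of FLT1. With the replicate block, which matches arrays of the same prime mark, 3 probe sets were called lower. With the third array of every group left out, 0 probe sets were called lower and 1 higher.

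The low level of these genes bounds what a fall could look like. Of the 9 member probe sets, 7 never rose above their own array's median on any of the 9 arrays, which holds for both probe sets of MBD3L1, ZSCAN4 and the TRIM43 pair and for KHDC1L. From the control level, the largest fall that the log2 scale allowed the other members ran from 0.22 for ZSCAN4 1552851_at to 1.53 for the TRIM43 pair 1553619_a_at. For ZSCAN4 1552851_at, MBD3L1 1552458_at (0.63) and KHDC1L (0.40) that room was under the 2-fold a call needs. These probe sets could therefore not be called lower, and the absence of a call for them says nothing about a fall. The remaining other members had room of 1.04 to 1.53, beside SE of 0.30 to 0.58 in treated against control HSF-6(8). The oocyte gene NLRP2, described below, changed by 1.58 ± 0.26 (SE) there and was not called. With the SE observed, even a complete loss of those members would thus not have been called, and their lack of a call is no evidence against a fall. The table has no detection calls, so a low signal cannot be told from background here. In a bulk sample, fewer cells that express a gene and less RNA per cell also cannot be told apart.

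MBD3L1, the relative of MBD3L2 that was first described in male germ cells, has 2 probe sets. The first (1552458_at) read 6.56, 13.4 and 6.97 units in control, 14.2, 19.3 and 0.655 in treated HSF-6(8) and 24.3, 21.5 and 6.44 in treated HSF-6(S9). The second (1552459_a_at) read 12.8, 13.7 and 36.8 units in control, 28.9, 5.27 and 11 in treated HSF-6(8) and 20.4, 25.6 and 18.6 in treated HSF-6(S9). The groups overlapped for both probe sets. In treated against control HSF-6(8) their log2 changes were 0.07 ± 0.34 and -0.27 ± 0.33 (SE; limma adjusted p = 1 for each), opposite in sign. The 95% confidence intervals ran from -0.68 to 0.83 and from -1.02 to 0.48, and the largest falls the scale allowed were 0.63 and 1.15.

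ZSCAN4 likewise gave only dim signal. The first probe set (1552851_at) measured 2.56, 0.586 and 5.11 units in control, 5, 13.3 and 9.75 in treated HSF-6(8) and 2.31, 2.07 and 1.4 in treated HSF-6(S9). The lowest treated HSF-6(8) array, at 5, was just under the highest control array, at 5.11, and the treated HSF-6(S9) arrays lay inside the control range. The second (1552852_a_at) measured 39.6, 7.18 and 18 units in control, 29, 24.7 and 14.4 in treated HSF-6(8) and 24.6, 4.3 and 24.7 in treated HSF-6(S9), with all groups overlapping. The log2 changes in treated against control HSF-6(8) were 0.43 ± 0.21 (SE; limma adjusted p = 0.848) and 0.11 ± 0.38 (SE; limma adjusted p = 1), neither of them a fall. From the control level of the first probe set, a fall of at most 0.22 was possible.

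The TRIM43 and TRIM43B pair cannot be split with these probe sets, so their values belong to the pair. The first probe set (1553618_at) measured 18.8, 19.3 and 12.8 units in control, 36.9, 21.8 and 28.3 in treated HSF-6(8) and 3.2, 27.3 and 9.94 in treated HSF-6(S9). All treated HSF-6(8) arrays were above all control arrays, as they were for 7.34% of all probe sets, and the log2 change of 0.44 ± 0.30 (SE) did not pass the test (limma adjusted p = 0.966). The second probe set (1553619_a_at) measured 23.8, 43.4 and 25.4 units in control, 18.9, 43.4 and 6.21 in treated HSF-6(8) and 1.69, 25.2 and 26.1 in treated HSF-6(S9). Its groups overlapped, its log2 change of -0.36 ± 0.43 (SE; limma adjusted p = 1) had the opposite sign, and the 95% confidence interval reached from -1.34 to 0.61.

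KHDC1L (220513_at) was near the bottom of the scale in all groups. It measured 9.25, 3.63 and 2.88 units in control, 2.31, 1.37 and 4.13 in treated HSF-6(8) and 1.47, 8.54 and 3.22 in treated HSF-6(S9). The groups overlapped, and the log2 change in treated against control HSF-6(8) was -0.18 ± 0.22 (SE; limma adjusted p = 1), of a largest possible fall of 0.40. A loss of this gene was therefore not detectable at the level at which the control arrays read it.

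RFPL2 (207227_x_at) was the member with the widest spread, and its mean was higher, not lower, in treated HSF-6(8). Control arrays measured 51.9, 5.09 and 17.2 units (mean 24.7 ± 24.3, SD, n = 3), treated HSF-6(8) arrays measured 41.6, 60.8 and 184 units (mean 95.5 ± 77.3, SD, n = 3), and treated HSF-6(S9) arrays measured 8.27, 16.5 and 49.5 units (mean 24.7 ± 21.8, SD, n = 3). The highest value came from the third treated HSF-6(8) array, which also had the highest median of all arrays (82.9), and 1 control array at 51.9 overlapped the treated range. The log2 change of 1.41 ± 0.58 (SE) did not pass the test (limma adjusted p = 0.738), without the third treated array it was 0.88, and with the third array of every group left out it was 0.81. The probe set name ends in x_at, the mark Affymetrix gives to probes that may also bind other transcripts.

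**Figure D2:**
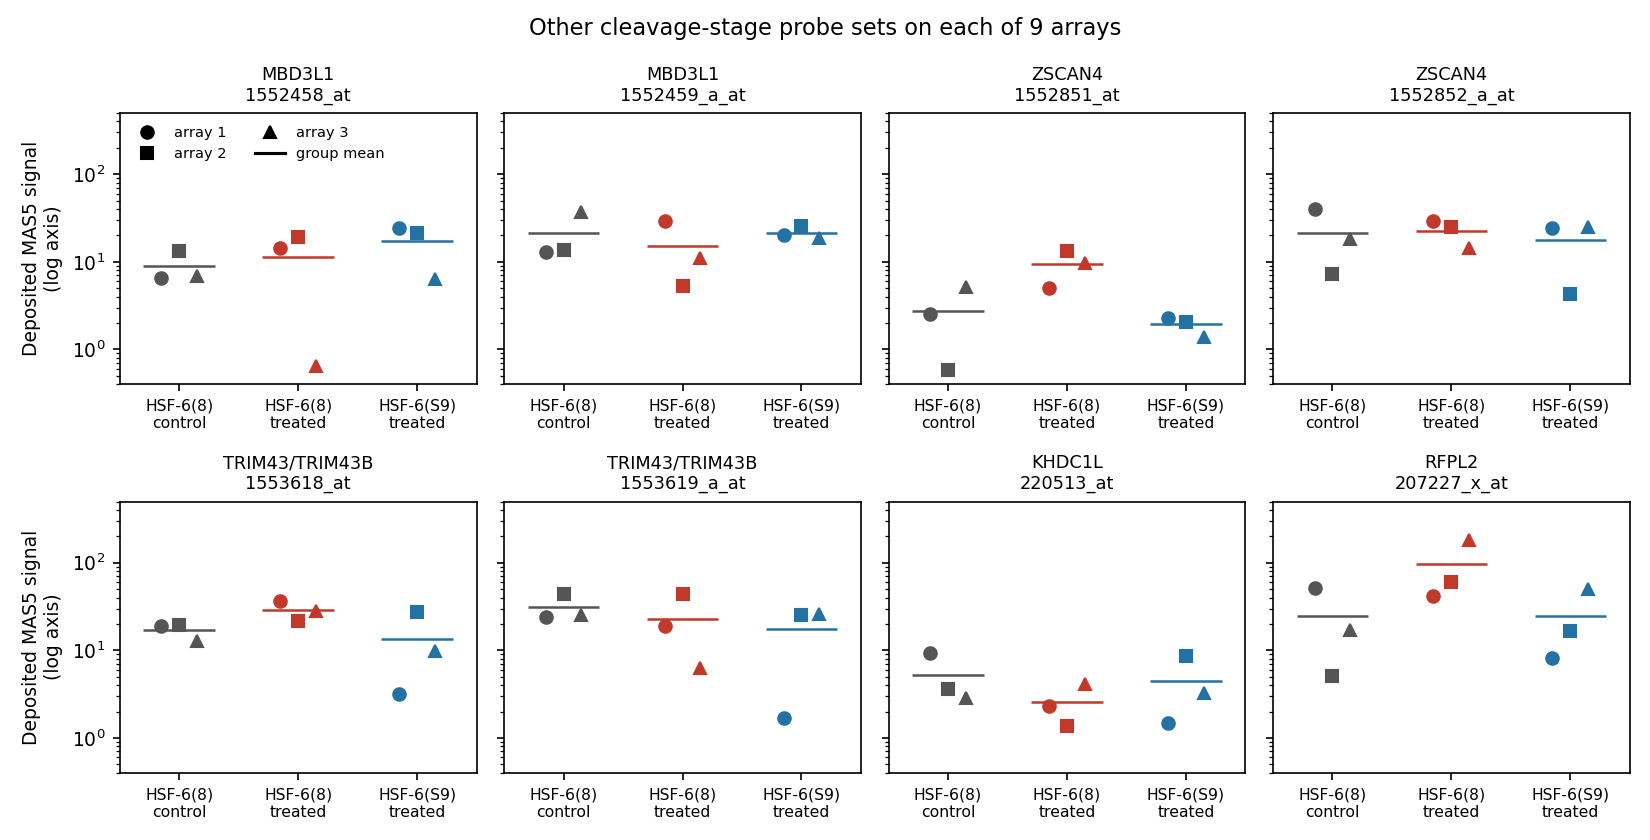
Deposited MAS5 signal (log axis) of the 8 other member probe sets on each of 9 arrays, with symbols for the array number and a line at each group mean. Control and treated values overlap in every panel except TRIM43/TRIM43B 1553618_at, where treated HSF-6(8) lies at 21.8 to 36.9 and the control at 12.8 to 19.3, and RFPL2 shows 1 array at 184.

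Set against treated HSF-6(8), the treated HSF-6(S9) arrays gave no call for any member. Across the array limma called 0 probe sets higher (0%) and 0 lower (0%) in this comparison, while 579 higher (1.06%) and 1424 lower (2.61%) probe sets had an unadjusted p under 0.05. Among the other 8 member probe sets 0 were higher and 2 lower at that level, namely RFPL2 and ZSCAN4 1552851_at. The largest differences among the other members were -1.37 ± 0.58 (SE) for RFPL2, with a 95% confidence interval from -2.66 to -0.07, and -0.68 ± 0.30 (SE) for the first TRIM43 pair probe set, each with a limma adjusted p of 1. RFPL2 was -0.84 without the third treated HSF-6(8) array, and the TRIM43 pair -0.41 without the first treated HSF-6(S9) array. For ZSCAN4 (1552851_at) the 3 HSF-6(S9) arrays at 1.4 to 2.31 units were all below the 3 HSF-6(8) arrays at 5 to 13.3 units, as for 5.04% of all probe sets, with a log2 difference of -0.49 ± 0.21 (SE; limma adjusted p = 1). RFPL2 in treated HSF-6(S9) had the same mean as the control, 24.7 units.

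Treated HSF-6(S9) against control HSF-6(8) gave no call for the other members either. Limma called 53 probe sets higher (0.097%) and 6 lower (0.011%) over the array, and 0 of the other 8 member probe sets, of which none had an unadjusted p under 0.05, beside 4.28% of all probe sets upward and 4.25% downward. The log2 changes ran from -0.56 ± 0.43 (SE; limma adjusted p = 0.799) for the second TRIM43 pair probe set to 0.38 ± 0.34 (SE; limma adjusted p = 0.827) for the first MBD3L1 probe set. KHDC1L stood at -0.06 ± 0.22 (SE; limma adjusted p = 0.971), ZSCAN4 at -0.06 and -0.13, and RFPL2 at 0.04 ± 0.58 (SE; limma adjusted p = 0.994). For RFPL2 the interval from -1.26 to 1.34 leaves room for a change of more than 2-fold either way.

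**Figure D3:**
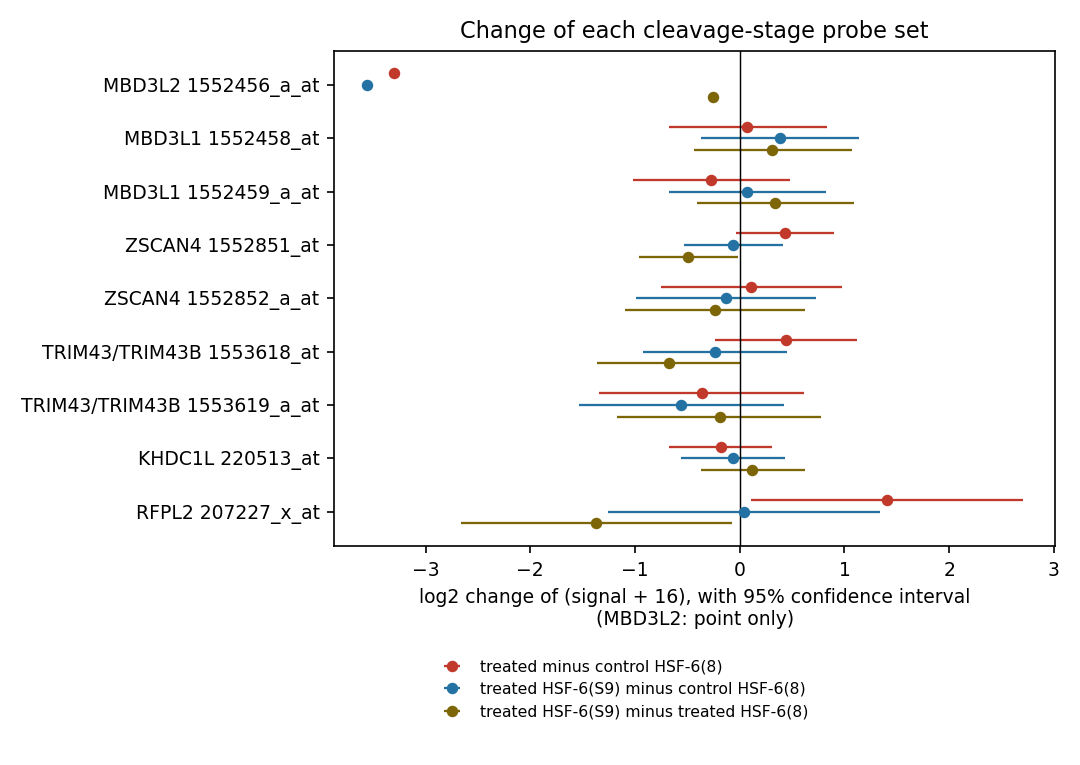
Log2 change of signal plus 16 units for the 9 member probe sets in 3 comparisons, with 95% confidence intervals except for MBD3L2, whose point alone is shown. MBD3L2 lies at -3.30 and -3.56 against the control, and the points of the other 8 probe sets lie between -0.56 and 1.41 in those comparisons.

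Across the 9 arrays, the log2 values of the other member probe sets correlated with MBD3L2 between -0.34 (RFPL2) and 0.38 (TRIM43 pair, 1553619_a_at). The genes outside the set with the most similar pattern were picked as the highest correlations among single-gene probe sets that passed the filter on low values. Their closer correlation follows from that choice and is not a comparison with the members. They are given as a description, also because the 9 points share 1 control group and the same 3-group layout. FLT1, a receptor for vascular endothelial growth factor, came first (226498_at, Pearson r = 0.994). MOCOS, the sulfurase of the molybdenum cofactor, had r = 0.978, and FLVCR1, a transporter first described for heme, had r = 0.976. They were followed by the nucleoside monophosphate kinase CMPK1 (r = 0.959) and SNUPN, the import adaptor of spliceosomal ribonucleoproteins (r = 0.957).

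FLT1 measured 1002, 1075 and 1080 units in control, 236, 243 and 249 in treated HSF-6(8) and 258, 216 and 191 in treated HSF-6(S9). Both treated groups were thus well below the control with little spread, and the log2 changes were -2.05 and -2.18. MOCOS changed by -0.82 and -0.87, FLVCR1 by -0.87 and -1.06, CMPK1 by -0.51 and -0.53, and SNUPN by -0.41 and -0.41. A high correlation here marks genes with tight replicates in the same order of groups, and the changes of these 5 genes were smaller than that of MBD3L2. The choice depends on the measure: by Spearman correlation none of the 5 probe sets described here was among the 5 most similar, and MOCOS was there through another probe set, 219959_at.

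A wider list of 61 other genes of embryonic genome activation had single-gene probe sets for 13 genes, 9 more genes only on probe sets shared between copies, and none for 39. No member of this list was called in any of the 3 comparisons. In treated against control HSF-6(8), 2 of its 15 single-gene probe sets had an unadjusted p under 0.05 upward (4.06% of all probe sets) and 2 downward (2.23% of all), both of the latter for ALPG, and the median log2 change was 0.06 beside 0.02 for all probe sets. In treated HSF-6(S9) against the control the same counts were 2 and 2 (4.28% and 4.25% of all), with a median of 0.12 beside -0.02. On the log2 scale used, 11 of the 15 had room for a 2-fold fall from their control level, and 4 of the 15 lay above the array median on all 3 control arrays.

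The list's 2 genes with the highest mean signal were ALPG, a germ cell alkaline phosphatase, and KHDC1, a relative of KHDC1L. ALPG (210431_at) measured 5862, 5413 and 2676 units in control, 2054, 572 and 672 in treated HSF-6(8) and 1947, 412 and 127 in treated HSF-6(S9). Every treated array was below every control array, as for 5.3% of all probe sets in HSF-6(8) and 7.21% in HSF-6(S9), but treated arrays differed among themselves, and the log2 changes of -2.23 ± 0.85 (SE; limma adjusted p = 0.691) and -3.16 ± 0.85 (SE; limma adjusted p = 0.299) did not pass the test. The second ALPG probe set (216377_x_at) had log2 changes of -0.74 and -1.30, and the probe set shared with ALPP had -2.62 and -3.19. With the third array of every group left out, 210431_at changed by -2.36 and -2.62. KHDC1 (230055_at) measured 255, 279 and 214 units in control, 207, 190 and 200 in treated HSF-6(8) and 228, 364 and 255 in treated HSF-6(S9), with log2 changes of -0.30 ± 0.23 (SE; limma adjusted p = 0.981) and 0.15 ± 0.23 (SE; limma adjusted p = 0.914).

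The 2 probe sets with an unadjusted p under 0.05 upward, named after their values were seen, were CCNA1 and ZNF280A. CCNA1, a cyclin of the germ line, measured 78.6, 68.4 and 21.3 units in control, 116, 115 and 144 in treated HSF-6(8) and 136, 144 and 128 in treated HSF-6(S9). ZNF280A, a zinc finger gene that responds to DUX4, measured 64.9, 98.4 and 54.6 units in control, 178, 128 and 217 in treated HSF-6(8) and 184, 112 and 133 in treated HSF-6(S9). Neither gene's treated arrays overlapped the control, which held upward for 7.34% of all probe sets in HSF-6(8) and 6.84% in HSF-6(S9). The log2 changes in HSF-6(8) were 1.07 ± 0.33 (SE; limma adjusted p = 0.519) for CCNA1 and 1.11 ± 0.29 (SE; limma adjusted p = 0.371) for ZNF280A. The CCNA1 change was 0.65 without the third control array, which read lowest, and 0.56 with the third array of every group left out. DUX4 itself is covered by 2 probe sets shared among its many copies, named here for its role, which ranged from 3.75 to 44.5 and from 8.75 to 120 units with all groups overlapping.

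**Figure D4:**
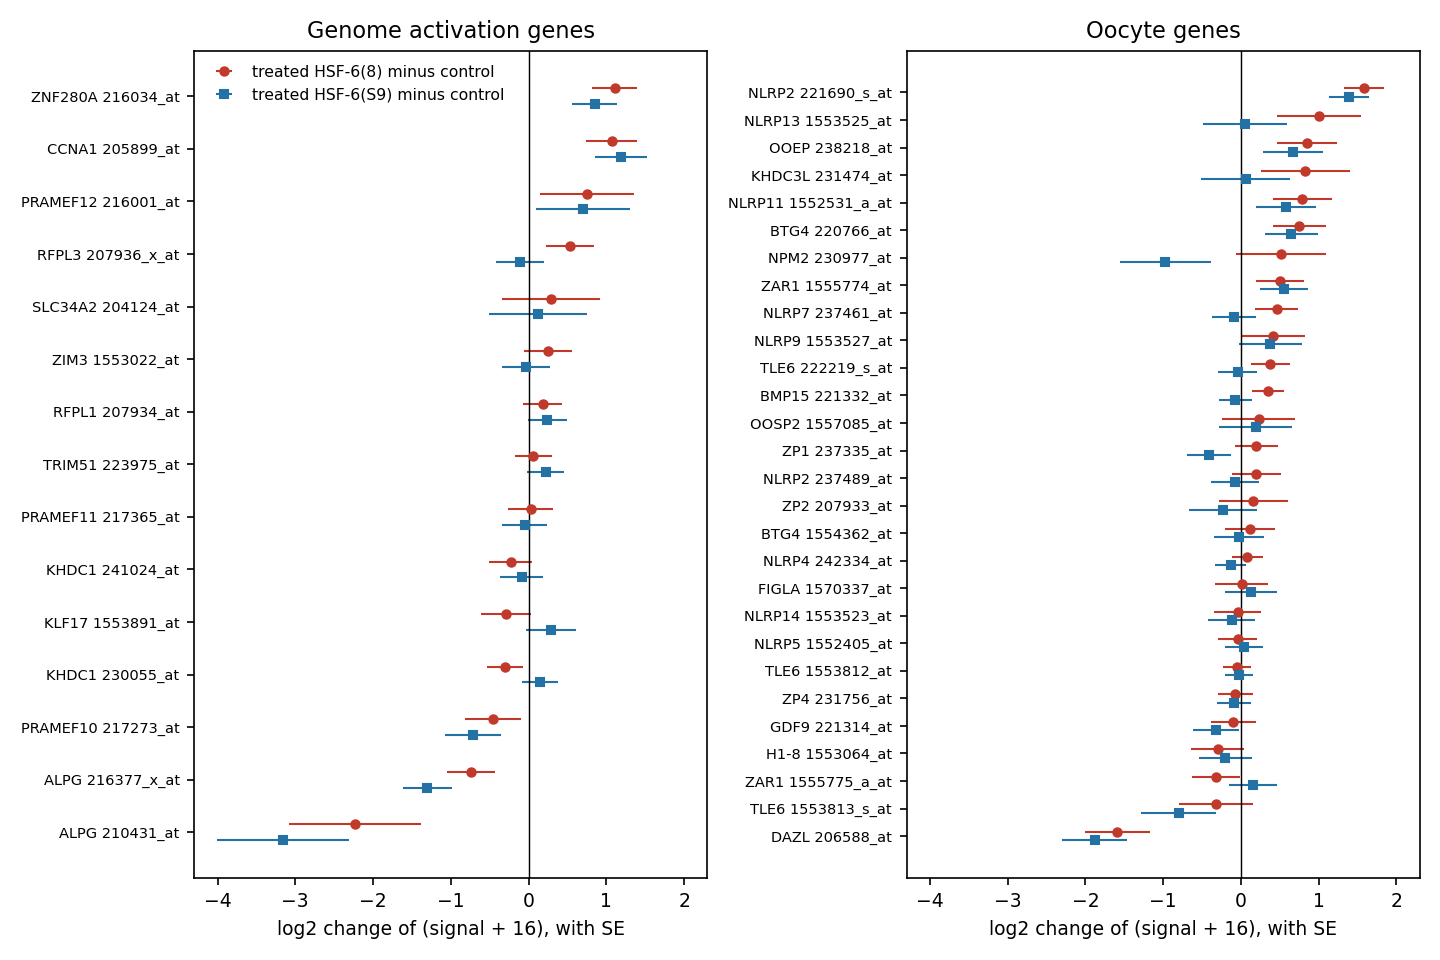
Log2 change of signal plus 16 units, with SE, for the single-gene probe sets of the other genome activation genes (left, 15 probe sets) and of oocyte genes (right, 28 probe sets), each treated group minus control HSF-6(8). ALPG lies at -2.23 and -3.16 and DAZL at -1.59 and -1.88, ZNF280A, CCNA1 and NLRP2 lie on the positive side, and none was called.

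Genes of stored oocyte RNA were followed as a second list, with 23 of 28 genes on 28 single-gene probe sets. None was called in any comparison, and 1 probe set upward and 1 downward had an unadjusted p under 0.05 in each treated group against control. Over the array those shares were 4.06% upward and 2.23% downward in HSF-6(8), and 4.28% and 4.25% in HSF-6(S9). Its median log2 change was 0.20 in treated HSF-6(8) and -0.04 in treated HSF-6(S9), beside 0.02 and -0.02 for all probe sets. Of the 28 probe sets, 17 never exceeded the array median.

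Among single-gene probe sets, the oocyte list's 2 genes with the highest mean signal had log2 changes of opposite sign. DAZL, an RNA-binding protein of germ cells, measured 378, 471 and 781 units in control, 190, 159 and 139 in treated HSF-6(8) and 182, 57.4 and 197 in treated HSF-6(S9), without overlap between control and treated arrays. That order held for 5.3% and 7.21% of all probe sets in the 2 comparisons. Its log2 changes of -1.59 ± 0.42 (SE; limma adjusted p = 0.39) and -1.88 ± 0.42 (SE; limma adjusted p = 0.204) did not pass the test. NLRP2, a component of the oocyte's subcortical complex, measured 149, 129 and 71.4 units in control, 351, 342 and 411 in treated HSF-6(8) and 314, 312 and 334 in treated HSF-6(S9) with the probe set 221690_s_at. All treated arrays were above all control arrays, as for 7.34% and 6.84% of all probe sets, and the log2 changes were 1.58 ± 0.26 (SE; limma adjusted p = 0.0936) and 1.39 ± 0.26 (SE; limma adjusted p = 0.123). NLRP2 did pass in treated HSF-6(8) when dim probe sets were removed first (adjusted p = 0.0408), with 64 units added (adjusted p = 0.0411) and with an intensity trend in the prior (adjusted p = 0.0439), and not with the third array of every group left out (1.23, adjusted p = 0.323). Its second probe set (237489_at) changed by 0.20 ± 0.31 (SE; limma adjusted p = 1).

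MBD3L2's relatives among the MBD genes and the genes of the NuRD complex were measured well. Of their 52 single-gene probe sets, 41 lay above the array median on all control arrays. None of the 18 genes was called, 1 probe set had an unadjusted p under 0.05 upward and 0 downward in treated against control HSF-6(8) (4.06% and 2.23% of all), and the median log2 change was 0.12, in a range from -0.84 to 0.91. In treated HSF-6(S9) the counts were 2 and 0 (4.28% and 4.25% of all) and the median 0.03. The highest mean signals belonged to the deacetylase HDAC1, at 7101 to 9679 units in control and 9327 to 11397 in treated HSF-6(8), and to the histone chaperone RBBP4 (210371_s_at), at 7661 to 11502 and 9470 to 11692 units. Their log2 changes were 0.26 ± 0.23 and 0.20 ± 0.26 (SE; limma adjusted p = 1 for each). MBD3, the gene MBD3L2 is named after, changed by -0.05, 0.05 and 0.04 with its 3 probe sets in that comparison.

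Known upstream regulators of the cleavage programme, 20 genes on 50 single-gene probe sets, also gave no call. In treated against control HSF-6(8), 1 probe set had an unadjusted p under 0.05 upward and 0 downward (4.06% and 2.23% of all), the median log2 change was -0.05, and changes ranged from -0.61 to 1.02. In treated HSF-6(S9) 1 was upward and 2 downward (4.28% and 4.25% of all), with a median of -0.07. DPPA4, an activator of cleavage-stage genes in mouse stem cells (232985_s_at), changed by -0.28 ± 0.31 (SE; limma adjusted p = 1) and nucleolin, NCL (200610_s_at), which takes part in silencing them there, by -0.13 ± 0.20 (SE; limma adjusted p = 1) in treated against control HSF-6(8).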

How the data were processed

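The deposited table holds signal intensity on a linear scale for 54675 probe sets, made by the authors with Affymetrix Expression Console and MAS5 per the submitters' processing notes (versions: not given in the sources used here). Each array's 2% trimmed mean lay between 500.061 and 500.076. No detection calls came with the values, and the genome build is not stated. GEO's platform annotation named the genes, with 41091 probe sets on a single gene, 1801 on several and 11721 on none.

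After 62 control probe sets were removed, 16 was added, log2 taken and limma 3.58.1 (R 4.3.3) fitted to all 9 arrays without a filter, with 6 residual and 3.45 prior degrees of freedom. Calls needed a Benjamini-Hochberg adjusted p under 0.05 and 2-fold. The script was tested on simulated data, with changes placed only in probe sets brighter in control than those of the other members. That test does not cover the level of the other members. Alternatives were other added values, a low-value filter, 2 normalizations, another prior, the replicate block, fewer groups and left-out arrays. Promoter windows were aligned with Biopython 1.88.

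Members and lists were chosen with earlier results of these data known. From each list the called genes, or else the 2 genes of highest mean among single-gene probe sets, were named. Prime marks in the titles gave the replicate numbers. Same-mark deviations correlated at 0.15, 0.11 and 0.40 between control and treated HSF-6(8), and at 0.14, 0.11 and 0.26 between treated groups. Between control and treated HSF-6(S9) they correlated at 0.05, 0.09 and 0.36. First with second arrays, of unlike marks, gave 0.15 and 0.19, 0.06 and 0.02, and 0.19 and 0.1 in the same order of comparisons. Only the third arrays stood out in every comparison, so pairing by mark was not shown and the main fit used no block. The number of arrays limits the precision.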

Additional observations from a re-analysis of the deposited data

How the results depend on the processing

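Of the other 8 member probe sets, 0 were called in any comparison under the alternatives that tested them, including each of the 9 arrays left out in turn. The filter on low values leaves none of them to test. MBD3L2 stayed lower in both treated groups throughout. Nothing is read from that, since MBD3L2 was chosen by this fall and its control and treated arrays did not overlap. Its log2 change in treated against control HSF-6(8) was -4.84 with 1 added and -1.93 with 64 added, and -3.43 to -3.11 with 1 array left out. In treated HSF-6(S9) against control it was -5.91 with 1 added, -2.01 with 64 added and -3.31 without the third arrays, an alternative chosen after seeing the data. Between treated groups it was -1.07 with 1 added.

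Counts over the array moved more, and the cause was not tested. Leaving out 1 array changed the number of higher calls by over 1.5 times for each of the 6 arrays of the groups compared, in both comparisons with the control. In treated against control HSF-6(8), probe sets called higher were 80 with the filter, 78 with a trended prior, 23 with the 2 groups alone, 1 without the third arrays and 20 to 42 with 1 array left out. Those called lower were 8 with the filter, 8 with the trended prior, 3 with the replicate block, 2 with the 2 groups alone, 0 without the third arrays and 2 to 4 with 1 array left out. In treated HSF-6(S9) against control, higher calls were 32 with 1 added, 92 with the filter, 92 with the trended prior, 23 with the 2 groups alone, 1 without the third arrays and 19 to 44 with 1 array left out. Lower calls were 10 with 1 added, 16 with 64 added, 22 with the filter, 21 with the trended prior, 0 without the third arrays and 3 to 9 with 1 array left out. The replicate block changed no member's call. Of the 5 genes most like MBD3L2, 1 was shared by Spearman correlation, through another probe set, and 3 with 1 added.

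Signs of dim members were unstable. In treated against control HSF-6(8), MBD3L1 1552458_at was -0.25 with 1 added and -0.14 to 0.40 with 1 array left out, MBD3L1 1552459_a_at was 0.08 without the third arrays and -0.57 to 0.01 with 1 array left out, and ZSCAN4 1552852_a_at was -0.19 to 0.44. Between treated groups the ranges with 1 array left out were -0.01 to 0.58 for MBD3L1 1552458_at, -0.41 to 0.09 for ZSCAN4 1552852_a_at, -0.54 to 0.22 for the TRIM43 pair 1553619_a_at and -0.02 to 0.23 for KHDC1L. In treated HSF-6(S9) against control they were -0.08 to 0.35 for MBD3L1 1552459_a_at, -0.14 to 0.03 for ZSCAN4 1552851_at, -0.43 to 0.21 for ZSCAN4 1552852_a_at, -0.56 to 0.03 for the TRIM43 pair 1553618_at, -0.20 to 0.07 for KHDC1L and -0.37 to 0.49 for RFPL2. There ZSCAN4 1552851_at was 0.05 and RFPL2 -0.43 without the third arrays. The other genes whose sign turned there were KHDC1 (-0.04 to 0.28), RBBP4 (-0.30 to 0.07) and DPPA4 (-0.50 to 0.06).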

Other observations

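The genes on either side of the MBD3L cluster on chromosome 19 are not described above. Of 10 neighbours, 5 on each side (C3, TRIP10, SH2D3A, VAV1, ADGRE1, ZNF557, INSR, ARHGEF18, PEX11G and SAXO5), none of the 17 probe sets was called in any comparison, and the median log2 change in treated against control HSF-6(8) was 0.24, beside 0.02 for all probe sets. In that comparison 2 probe sets had an unadjusted p under 0.05 upward and 0 downward (4.06% and 2.23% of all probe sets), namely VAV1 and ZNF557, which are named after their values were seen. VAV1, a guanine nucleotide exchange factor of blood cells, measured 103, 72.6 and 87.8 units in control, 294, 342 and 198 in treated HSF-6(8) and 294, 277 and 229 in treated HSF-6(S9). All treated arrays were above all control arrays, as for 7.34% of all probe sets in HSF-6(8) and 6.84% in HSF-6(S9). The log2 changes were 1.48 ± 0.25 (SE; limma adjusted p = 0.0986) and 1.45 ± 0.25 (SE; limma adjusted p = 0.0977). With dim probe sets removed first VAV1 passed the test in both (limma adjusted p = 0.0454 and 0.0422), and under no other alternative did it pass. With the third array of every group left out the changes were 1.70 and 1.55 (limma adjusted p = 0.28 and 0.305). ZNF557 (220444_at), a KRAB zinc finger gene, changed by 0.86 ± 0.35 (SE; limma adjusted p = 0.728) in treated against control HSF-6(8), and its other probe set (239259_at) by -0.07 ± 0.32 (SE; limma adjusted p = 1).

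Among 13 probe sets of germ cell markers, none was called. In treated against control HSF-6(8), 2 had an unadjusted p under 0.05 upward and 1 downward (4.06% and 2.23% of all probe sets). In treated HSF-6(S9) against control the counts were 0 and 1 (4.28% and 4.25% of all). DAZL, described above, was the lone probe set of that list to pass the filter on low values. MAEL, a piRNA pathway protein, measured 28, 17.6 and 43 units in control, 69.3, 46 and 136 in treated HSF-6(8) and 75.8, 51 and 40.7 in treated HSF-6(S9), and its log2 change in treated against control HSF-6(8) was 1.07 ± 0.36 (SE; limma adjusted p = 0.598). For MAEL all treated HSF-6(8) arrays were above all control arrays, as for 7.34% of all probe sets, while treated HSF-6(S9) overlapped the control. Neither DAZL, which lay below the control, nor MAEL passed the test.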
